A study of Mus musculus with 2 samples.

Results

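The secreted R-spondins, their Lgr receptors and the feedback genes of Wnt signalling were followed in single cells of the mouse mammary gland. The set was fixed by name and held 10 of the 32285 genes counted: the ligand genes Rspo1, Rspo2 and Rspo3, the receptor genes Lgr4, Lgr5 and Lgr6, the ubiquitin ligase genes Znrf3 and Rnf43, the feedback gene Axin2 and the secreted inhibitor gene Wif1. Raw counts of unique molecular identifiers (UMIs, 1 per captured RNA molecule) were summed by cell class and library, to set the cells that carry ligand RNA beside those that carry receptor RNA. The material was the 4th mammary gland of virgin female C57BL/6 mice aged 6 to 8 weeks, either with a deletion of Gpm6a (KO) or wild type (WT). Living cells, those not stained by DAPI, were sorted from 3 littermates per genotype, and 1 library was made per genotype. The labels name neither the deleted stretch of Gpm6a nor whether cells of the 3 animals were pooled. They describe the sorted cells as epithelial, yet both libraries held many stromal and immune cells.

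R-spondins are secreted proteins that bind Lgr receptors and, through them, the transmembrane ligases Znrf3 and Rnf43. These ligases remove Frizzled receptors from the cell surface, so R-spondin binding leaves more receptor for Wnt ligands. Axin2, Znrf3, Rnf43 and Lgr5 are themselves known targets of beta-catenin, while Wif1 binds Wnt ligands outside the cell. In the mammary gland, Wnt signals are known to maintain basal stem and progenitor cells, and R-spondin 1 is known to act on them.

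The KO library held 11442 barcodes and the WT library 12291, with 139757797 and 160026788 UMIs, and 33 barcode sequences occurred in both. Filtering and the removal of doublets left 10472 KO and 10523 WT cells, with median depths of 9521 and 11086 UMIs. Gpm6a itself had 29 UMIs in the KO library, 0.225 [0.150, 0.323] counts per 1000000 UMIs (CPM), and 284 in the WT library, 1.91 [1.70, 2.15] CPM. RNA outside the deleted stretch would still be counted, so this does not check the deletion. Fibroblasts held 3 KO and 7 WT Gpm6a UMIs, and basal cells 0 KO and 14 WT. A mesothelial cluster of 0 KO and 29 WT cells had Gpm6a among its leading genes, so the whole-library values are not levels per cell type. Bracketed ranges are 95% intervals that cover counting error only, by the exact Poisson method for levels and the exact Clopper-Pearson method for shares of cells. Of 37 clusters, 27 took the name of 1 of 18 classes from marker genes, and each class name means cells like that type. The 10 unnamed clusters held 6.80% of KO and 15.3% of WT cells. Each genotype has 1 library, so the differences below could not be checked against the spread between animals, and nothing was tested. In what follows, a pair of values is given for the KO library first and the WT library second, and a value of 2-fold is reached at a log2 ratio of 1 with 1 CPM added to both levels.

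The classes carried the markers of their names. The 9 basal markers, among them Krt5 and Krt14, summed to 18704.5 and 15499.6 CPM in basal cells, and to at most 471 CPM in luminal progenitors, hormone-sensing luminal cells and fibroblasts. The 7 fibroblast markers, among them Col1a1 and Dcn, summed to 54230.2 and 61349.5 CPM in fibroblasts and to 644 and 840 CPM in basal cells. Epithelial cells below are basal cells, the contractile outer layer (946 and 1418 cells), luminal progenitors (440 and 265) and hormone-sensing luminal cells (1235 and 976). Fibroblasts numbered 4582 and 3785 cells.

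RefSeq promoter sequence on GRCm38.p6 was found for 6 of the 10 genes. The 250 bases before the start of Axin2, the feedback gene, and of Rspo1, the ligand gene, are shown, since these genes had their highest levels among fibroblast clusters in the same cluster. Both lie on the + strand and are written 5′ to 3′. The Axin2 stretch is chr11:108920099-108920348 and the Rspo1 stretch chr4:124986180-124986429.
Axin2: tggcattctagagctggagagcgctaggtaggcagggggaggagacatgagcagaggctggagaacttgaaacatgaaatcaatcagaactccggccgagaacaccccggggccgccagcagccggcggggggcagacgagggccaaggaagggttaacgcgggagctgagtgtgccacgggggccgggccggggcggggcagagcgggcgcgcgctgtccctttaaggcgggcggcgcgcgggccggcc
Rspo1: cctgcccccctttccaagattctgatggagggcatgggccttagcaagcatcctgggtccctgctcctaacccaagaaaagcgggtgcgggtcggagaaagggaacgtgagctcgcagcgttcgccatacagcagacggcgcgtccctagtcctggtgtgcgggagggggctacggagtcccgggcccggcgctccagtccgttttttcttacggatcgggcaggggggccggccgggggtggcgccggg
The windows from 250 bases before to 50 after the start were searched on both strands for CTTTGAT, letters to which TCF and LEF factors are known to bind. The motif stood in 0 of the 7 windows of the 6 genes, Rnf43 having 2 starts, and in 1225 of all 32851 promoter windows, 3.73%. No letters are therefore in capitals. This describes only these windows.

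**Figure D1:**
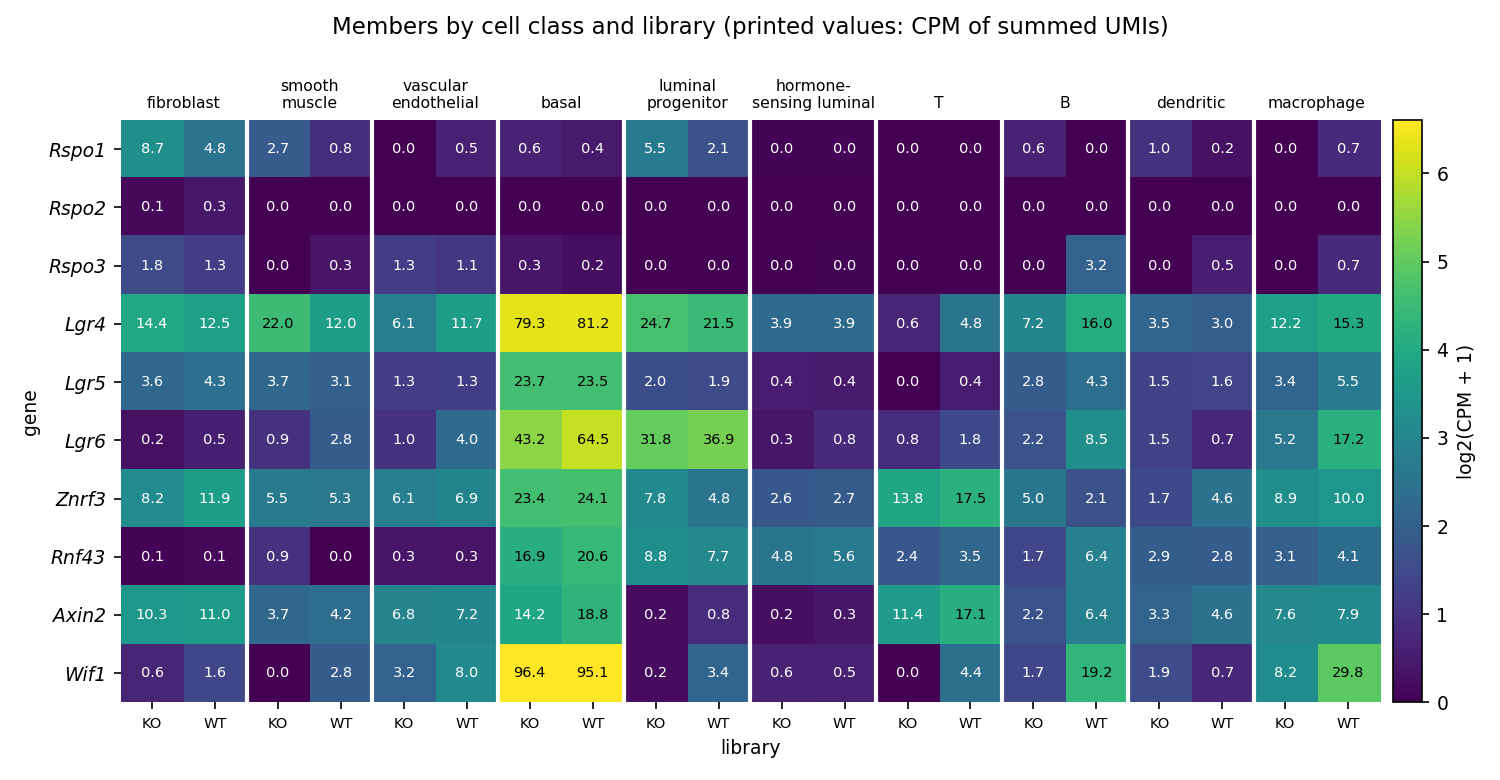
The heat map shows each gene (rows) in the 10 cell classes compared (columns, KO and WT library side by side), coloured by log2 of CPM plus 1 with the CPM of summed UMIs printed in each field. Rspo1 was at 8.7 and 4.8 CPM in fibroblasts, while Lgr4, Lgr5, Lgr6, Rnf43 and Wif1 were highest in basal cells; levels are comparable along a row and not between genes.

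Rspo1 and Rspo3 were higher in fibroblasts, and the 3 Lgr receptor genes in the summed epithelial classes. Fibroblasts also held receptor RNA, 21.8% and 14.8% of all Lgr4 UMIs and 23.2% and 20.4% of those of Lgr5. In hormone-sensing luminal cells, Lgr4 (3.91 and 3.89 CPM) and Lgr5 (0.412 and 0.398 CPM) were below fibroblasts (14.4 and 12.5, and 3.57 and 4.33 CPM). Luminal progenitors were above fibroblasts for Lgr4, at 24.7 and 21.5 CPM. For Lgr5 they were below, at 2.00 and 1.86 CPM, with overlapping intervals. Of the 9 genes with at least 20 UMIs in both compartments together, in each library, 2 were at least 2-fold higher in fibroblasts than in epithelial cells in both libraries, Rspo1 and Rspo3. The same fold was reached by 14.4% of all 15480 genes measured. Epithelial cells were at least 2-fold higher for 5 of the 9, Lgr4, Lgr5, Lgr6, Rnf43 and Wif1, against 16.2% of all genes. Of 18 alternative settings, 7 ended the call for Rspo3, 7 for Lgr4, 7 for Lgr5 and 1 for Rspo1, while the calls for Lgr6, Rnf43 and Wif1 stood in all 18. Znrf3 and Axin2 reached the fold in neither direction. Rspo2 was too low to be measured this way.

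Rspo1 (ENSMUSG00000028871, chr4:124986430-125009099, + strand) had 340 UMIs in KO fibroblasts, 8.73 [7.83, 9.71] CPM, and 200 in WT fibroblasts, 4.75 [4.12, 5.46] CPM. Epithelial cells held 43 and 18 UMIs, 0.929 and 0.369 CPM. The log2 ratio of fibroblasts over epithelium was 2.34 and 2.07. Fibroblasts carried 74.7% of all Rspo1 UMIs in the KO library and 50.5% in the WT library. A UMI was seen in 5.48% [4.84, 6.18] of KO and 4.12% [3.51, 4.80] of WT fibroblasts, whose median depth was 8420 and 10849 UMIs. T cells, which should lack it, had 0 UMIs in 733 KO and 290 WT cells (median depth 4779 and 5325.5 UMIs). With every cell thinned to 2000 UMIs, the fibroblast shares were 1.38% and 0.936%, and 0% of T cells had a UMI in either library.

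Within fibroblasts, Rspo1 was uneven. It was highest in cluster 6, led by Crabp1, Stra6, Col13a1 and Mmp11 (513 and 409 cells), at 36.8 [31.7, 42.6] and 22.7 [18.7, 27.2] CPM. Cluster 24, led by the interferon-response genes Ifit1 and Isg15 (106 and 52 cells), came next at 24.6 [14.6, 38.9] and 22.6 [12.0, 38.7] CPM, and its intervals overlapped those of cluster 6 in both libraries. Cluster 5, led by Hhip and Vit, held 8.35 and 4.08 CPM, and cluster 1, led by Tnc and Gria1, 7.10 and 2.27 CPM. The adventitial-type cluster 3, with Pi16 and Dpp4, held 2.60 and 2.32 CPM, and cluster 4, with Scg3 and Fgf10, 0.688 and 0.552 CPM. The order of the 6 clusters was the same in both libraries except that clusters 1 and 3 changed places, where their WT intervals overlapped. The library level was higher in KO than in WT cells in 6 of 6 clusters. So was that of Lgr4, whose log2 ratio in fibroblasts was 0.19 with overlapping intervals. Clusters and sub-clusters are parts of the same 2 libraries and not replicates, so such counts, here and below, give direction only. In fibroblasts as a whole the log2 ratio of KO over WT for Rspo1 was 0.76, under the 2-fold limit, and the intervals did not overlap. Over 18 alternative settings it ran from 0.46 to 1.07, and 1 of them reached 2-fold.

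When the variable genes were not scaled before clustering, an alternative added after the data were seen, the Stra6, Crabp1 and Mmp11 cells fell into a wider fibroblast cluster of 1350 and 1096 cells. Rspo1 there was at 19.8 and 10.9 CPM, still the highest among the fibroblast clusters. The next, with Vit and Hhip, held 10.4 and 5.26 CPM.

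**Figure D2:**
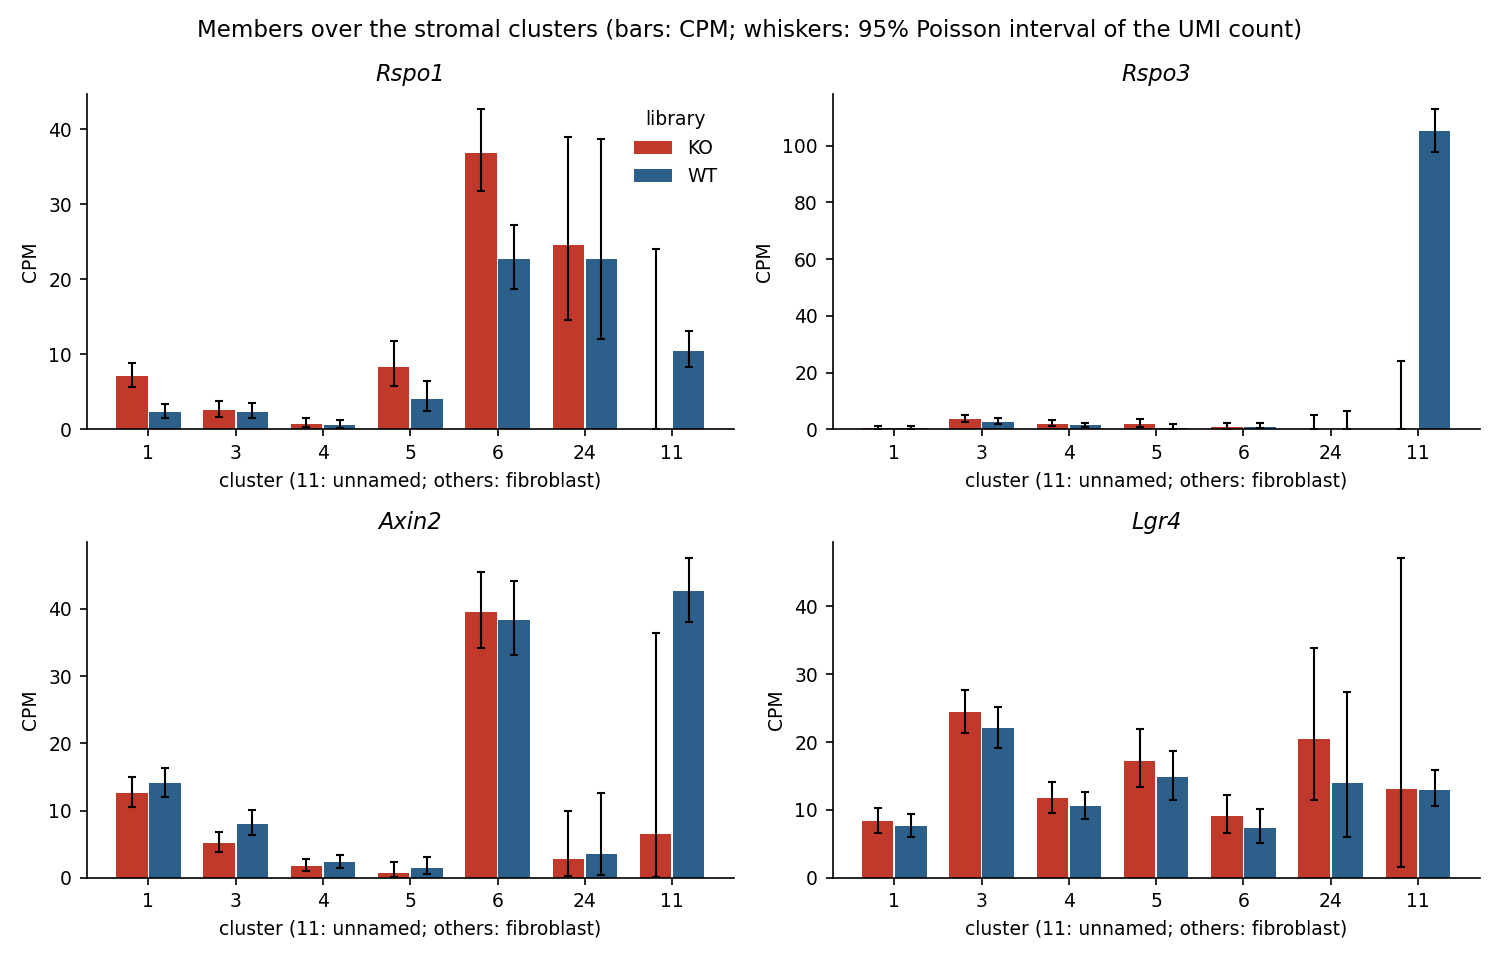
Bars give the CPM of Rspo1, Rspo3, Axin2 and Lgr4 in the 6 fibroblast clusters and the unnamed cluster 11 (x axis), red for the KO and blue for the WT library, with 95% Poisson intervals of the UMI counts as whiskers. Rspo1 and Axin2 shared their highest fibroblast level in cluster 6, Lgr4 was highest in cluster 3, and Rspo3 stood at 105 CPM in the WT cells of cluster 11, which has 15 KO cells.

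Smaller populations also held Rspo1. Mesothelial cells, the lining cells marked by Upk3b and Msln, were found in the WT library alone, 29 cells, with 53 UMIs, 177 [133, 232] CPM, and a UMI in 62.1% [42.3, 79.3] of cells. Schwann cells, the glia of peripheral nerves (32 cells in each library), held 14 and 3 UMIs, 85.8 [46.9, 144] and 15.3 [3.15, 44.6] CPM. These classes were under the 100 cells per library asked for a comparison of genotypes.

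In luminal progenitors Rspo1 had 33 UMIs in 440 KO cells and 8 in 265 WT cells, 5.50 [3.79, 7.72] and 2.12 [0.916, 4.18] CPM. The log2 ratio of 1.06 passed the 2-fold limit, as did 3.04% of all genes measured in this class in either direction. The intervals overlapped, and the 5 cells with most Rspo1 UMIs held 42.4% and 87.5% of them. The call stood in 9 of 18 alternatives, over which the ratio ran from 0.56 to 2.07. A UMI was seen in 5.00% [3.16, 7.47] and 2.26% [0.835, 4.86] of these cells, and in 2.29% and 0.392% after thinning. The 7 fibroblast markers summed to 273 and 514 CPM in this class, higher in the WT library. Basal cells held 9 UMIs in each library and hormone-sensing luminal cells 1 in each.

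Rspo2 (ENSMUSG00000051920, chr15:43020794-43170826, - strand), another ligand of the family, had 4 UMIs in all KO cells and 18 in all WT cells. Of these, 4 and 14 lay in fibroblasts, 0.103 [0.0280, 0.263] and 0.333 [0.182, 0.558] CPM, and 4 and 11 in cluster 3 with Pi16 and Dpp4. No UMI was found in basal, luminal progenitor or hormone-sensing luminal cells of either library. In the 2621 KO and 2659 WT cells of these classes a count of 0 allows shares of cells with a UMI of up to 0.114% and 0.113%, which is no limit on cells that express the gene. With so few UMIs no fold was computed.

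Rspo3 (ENSMUSG00000019880, chr10:29452416-29535867, - strand) had 91 UMIs in all KO cells and 892 in all WT cells. Of the WT UMIs, 785 lay in the unnamed cluster 11, with 670 WT and 15 KO cells, at 105 [97.9, 113] CPM. The 15 KO cells held 0, with an upper limit of 24.1 CPM. Cluster 11 was led by Rxfp2, Rspo3, Unc13c and Coch, so this level belongs to what defines it, and Rspo3 was the only member among the variable genes used for clustering. With nearly all of its cells in 1 library, the cluster and the library cannot be told apart.

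Within named fibroblasts, Rspo3 was at 72 and 55 UMIs, 1.85 [1.45, 2.33] and 1.31 [0.985, 1.70] CPM, and the intervals overlapped. It was highest in cluster 3 with Pi16 and Dpp4, at 3.80 [2.69, 5.21] and 2.64 [1.71, 3.89] CPM, the cluster that also held most Rspo2. Without scaling before clustering, the Pi16 and Dpp4 cluster held 3.90 [2.78, 5.34] and 2.84 [1.87, 4.13] CPM and was no longer the highest in the WT library, where the Stra6 cluster held 2.88 [2.05, 3.93] CPM. A small cluster led by Smoc2 and Ret (27 and 89 cells) then held the highest level in both libraries, from 2 and 3 UMIs. The log2 ratio of fibroblasts over epithelium was 1.36 and 1.07, with 5 epithelial UMIs in each library. Of KO over WT in fibroblasts, the log2 ratio was 0.30, and its sign turned in 5 of 18 alternatives. It was -2.66 with cluster 11 counted as fibroblasts and -1.22 with cells classed one by one, both past 2-fold, -0.10 without scaling, -0.05 with Wnt genes left out of clustering and -0.03 with each library clustered alone. Schwann cells held 10 and 1 UMIs, 61.3 [29.4, 113] and 5.09 [0.129, 28.4] CPM.

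All 3 receptor genes had their highest level, among the 10 classes compared, in basal cells, but they differed in how they spread beyond them. Lgr4 (ENSMUSG00000050199, chr2:109917647-110014257, + strand) reached 79.3 [75.0, 83.8] and 81.2 [77.5, 85.0] CPM in basal cells, from 1272 and 1818 UMIs. Luminal progenitors came to 24.7 [20.9, 29.0] and 21.5 [17.1, 26.7] CPM, and hormone-sensing luminal cells to 3.91 [3.17, 4.78] and 3.89 [3.12, 4.80] CPM. The order basal, luminal progenitor, hormone-sensing was the same in both libraries and no 2 of the 3 intervals overlapped. Between the libraries the intervals overlapped in each of these classes.

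Lgr4 was also found outside the epithelium, at 14.4 [13.2, 15.6] and 12.5 [11.4, 13.6] CPM in fibroblasts. Among fibroblast clusters it was highest in cluster 3, at 24.4 [21.4, 27.6] and 22.0 [19.2, 25.2] CPM, and was at 9.11 and 7.36 CPM in cluster 6, which led for Rspo1. Smooth muscle cells held 22.0 [14.1, 32.7] and 12.0 [8.67, 16.1] CPM. The WT keratinocyte class, 298 cells, held 316 UMIs, 46.1 [41.2, 51.5] CPM. A UMI was seen in 62.7% [59.5, 65.8] and 59.0% [56.4, 61.6] of basal cells (median depth 14391 and 12668.5 UMIs) and in 0.409% and 2.41% of T cells. After thinning, the basal shares were 15.3% and 16.3% and the T cell shares 0.275% and 0.697%.

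Lgr5 (ENSMUSG00000020140, chr10:115450311-115587780, - strand), widely used as a stem cell marker, was at 23.7 [21.4, 26.2] and 23.5 [21.5, 25.6] CPM in basal cells, from 380 and 526 UMIs. It was found in 21.6% [19.0, 24.3] and 21.5% [19.4, 23.7] of basal cells, 6.38% and 5.86% after thinning, against 0 KO and 1 WT UMI in all T cells. The intervals of the 2 libraries overlapped. Luminal progenitors held 12 and 7 UMIs, 2.00 and 1.86 CPM, and hormone-sensing luminal cells 10 and 9. Fibroblasts held 3.57 [3.0, 4.21] and 4.33 [3.72, 5.00] CPM, highest in cluster 1 with Tnc and Gria1 at 7.38 [5.84, 9.20] and 7.24 [5.76, 8.97] CPM.

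Basal cells divided by their Lgr5 level. At the finer resolution, the basal sub-cluster led by Slpi and Grik3 (basal 1, 509 and 805 cells) held 47.7 [42.8, 53.0] and 43.2 [39.4, 47.3] CPM. The sub-cluster led by Il17b and Ereg (basal 14, 265 and 348 cells) held 5.07 [3.31, 7.43] and 6.64 [4.70, 9.12] CPM, and that led by Lbhd2 and Serpinb11 (basal 18, 159 and 246 cells) 1.24 [0.338, 3.18] and 2.24 [1.16, 3.91] CPM. Lgr5 is itself the third leading gene of the Slpi sub-cluster, so this split is a description of the sub-clusters. Axin2 went in the same order as Lgr5, with overlapping intervals between neighbouring sub-clusters, at values given with that gene. Znrf3 went in the opposite order, at 18.9 and 19.99, 25.9 and 23.9, and 30.7 and 33.0 CPM in the Slpi, Il17b and Lbhd2 sub-clusters. Its Slpi and Il17b intervals overlapped in both libraries. Lgr4 followed neither order, at 79.5 and 83.4, 75.3 and 67.8, and 85.9 and 91.7 CPM in the Slpi, Il17b and Lbhd2 sub-clusters.

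Within the Slpi sub-cluster, cells with an Lgr5 UMI did not carry more Axin2 RNA. Axin2 was at 12.0 CPM in the 180 KO cells with Lgr5 and 18.8 CPM in the 329 without, and at 18.7 CPM in the 258 WT cells with Lgr5 and 25.5 CPM in the 547 without. Cells with an Lgr5 UMI were the deeper ones, at medians of 13634 and 12370 UMIs against 10695 and 9417. A cell without an Lgr5 UMI may still express the gene, so this split cannot show whether single cells pair Lgr5 and Axin2. Cells of 1 library share their source, and no test was made.

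**Figure D3:**
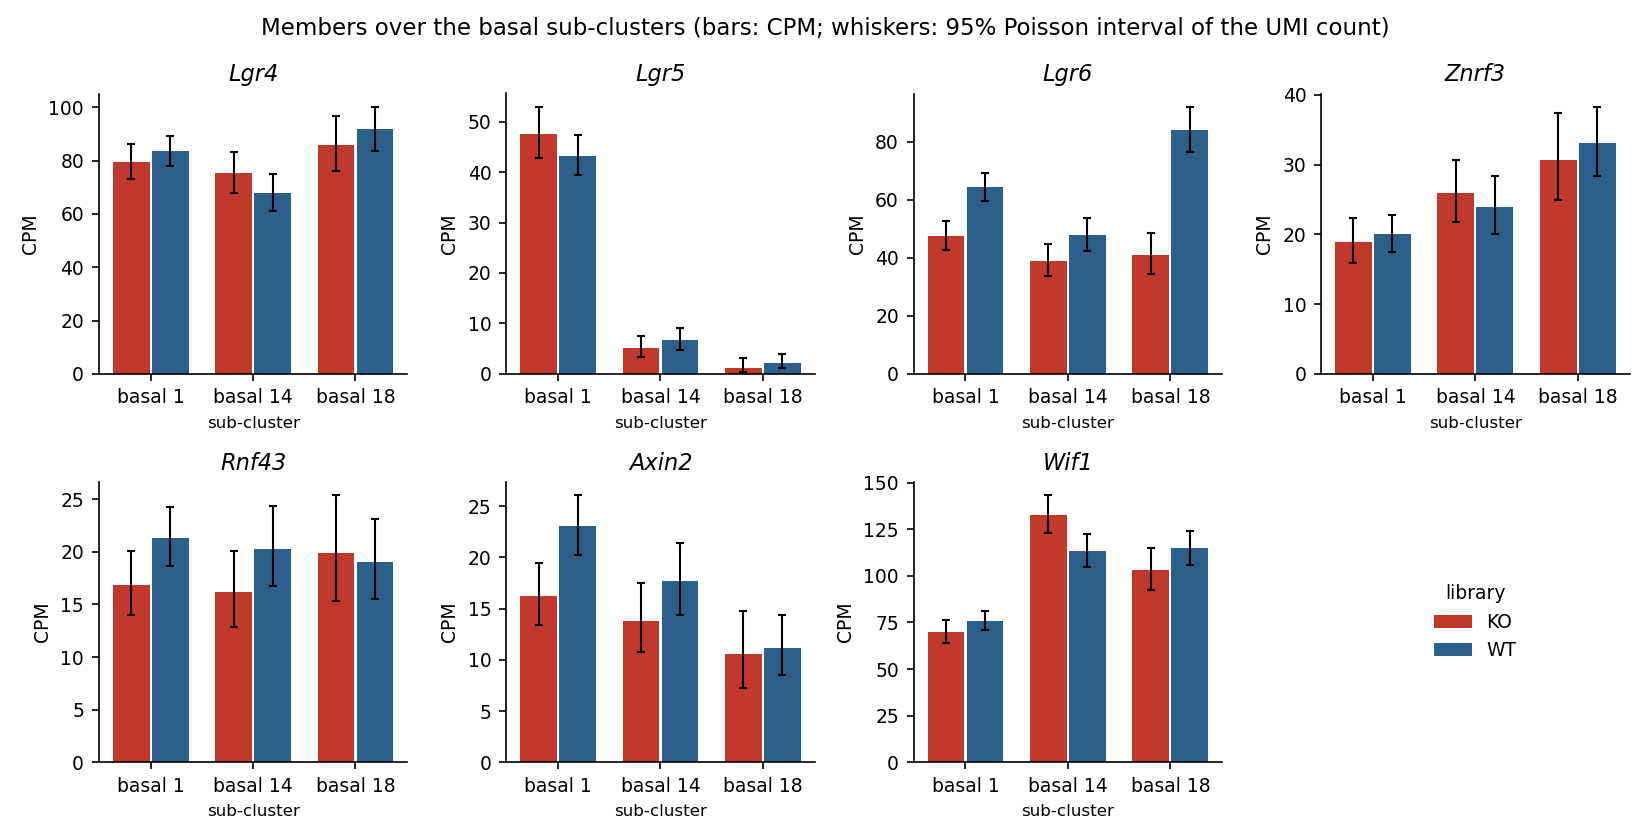
Bars give the CPM of 7 genes in the 3 basal sub-clusters (x axis), red for the KO and blue for the WT library, with 95% Poisson intervals of the UMI counts as whiskers. Lgr5 fell from 47.7 and 43.2 CPM in basal 1 to 1.24 and 2.24 CPM in basal 18, Wif1 was lowest in basal 1, and the KO bars of Lgr6 and Axin2 lay below the WT bars in all 3.

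Lgr6 (ENSMUSG00000042793, chr1:134983301-135105276, - strand) was shared by basal cells and luminal progenitors and was low in hormone-sensing luminal cells and fibroblasts. Basal cells held 693 UMIs in the KO library, 43.2 [40.1, 46.6] CPM, and 1444 in the WT library, 64.5 [61.2, 67.9] CPM. Luminal progenitors held 31.8 [27.5, 36.7] and 36.9 [31, 43.5] CPM. Hormone-sensing luminal cells held 8 and 17 UMIs, and fibroblasts 9 and 21 UMIs, 0.231 and 0.499 CPM. The log2 ratio of fibroblasts over epithelium was -4.04 and -4.50.

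The basal intervals of Lgr6 did not overlap between the libraries. The log2 ratio of KO over WT was -0.57, short of 2-fold. Of the genes measured in basal cells, 0.925% reached 2-fold in either direction, and the share that reached the smaller size of Lgr6 was not computed. Over the 18 alternatives it ran from -0.70 to -0.40. The KO level was lower in 3 of 3 basal sub-clusters, at 47.5 [42.6, 52.8] and 64.3 [59.6, 69.2] CPM with Slpi, 38.8 [33.6, 44.6] and 47.7 [42.2, 53.7] CPM with Il17b, and 40.9 [34.3, 48.5] and 83.8 [76.3, 92.0] CPM with Lbhd2. The share of basal cells with a UMI was 42.3% [39.1, 45.5] and 49.4% [46.8, 52.1], and 7.65% and 11.4% after thinning. In luminal progenitors the intervals overlapped.

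Znrf3 (ENSMUSG00000041961, chr11:5276324-5444847, - strand), the first of the ligases that clear Frizzled receptors, was spread over epithelium, stroma and lymphocytes. Basal cells held 23.4 [21.1, 25.9] and 24.1 [22.1, 26.2] CPM, T cells 13.8 [10.8, 17.6] and 17.5 [12.5, 23.8] CPM, and hormone-sensing luminal cells 2.55 and 2.65 CPM. Fibroblasts held 318 and 502 UMIs, 8.17 [7.29, 9.11] and 11.9 [10.9, 13.0] CPM. These last intervals did not overlap, and the KO level was lower in 6 of 6 fibroblast clusters. The log2 ratio of -0.50 was short of 2-fold, which 0.65% of the genes measured in fibroblasts passed, and ran from -0.54 to -0.36 over the alternatives.

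Rnf43 (ENSMUSG00000034177, chr11:87662722-87735539, + strand), the other ligase, was higher in epithelial cells than in fibroblasts and was also found in immune cells. It held 16.9 [14.9, 19.0] and 20.6 [18.8, 22.6] CPM in basal cells, 8.83 [6.62, 11.6] and 7.69 [5.15, 11] CPM in luminal progenitors, and 4.78 [3.95, 5.73] and 5.57 [4.64, 6.64] CPM in hormone-sensing luminal cells. Fibroblasts held 2 and 4 UMIs, and fibroblast cluster 6 held 0 in both libraries, with upper limits of 0.747 and 0.733 CPM. The fibroblast cells with the most Axin2 thus had Znrf3, at 16.0 [12.7, 19.9] and 20.1 [16.4, 24.4] CPM in cluster 6, with no Rnf43 detected at this depth.

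Axin2 (ENSMUSG00000000142, chr11:108920349-108950783, + strand), a scaffold protein of the beta-catenin destruction complex and a common readout of Wnt activity, was found in both compartments. Basal cells held 227 UMIs, 14.2 [12.4, 16.1] CPM, and 421 UMIs, 18.8 [17.1, 20.7] CPM. Luminal cells had very little, with 1 and 3 UMIs in luminal progenitors and 5 and 7 in hormone-sensing luminal cells. Luminal progenitors thus held Lgr4 and Lgr6 at levels of more than 20 CPM, beside 0.167 and 0.796 CPM of Axin2. Axin2 had a UMI in 18.2% [15.8, 20.8] and 20.2% [18.1, 22.4] of basal cells, 2.76% and 3.11% after thinning. T cells held 11.4 [8.61, 14.8] and 17.1 [12.1, 23.3] CPM of Axin2, from 56 and 39 UMIs. Their receptor levels were 0.611 and 4.81 CPM for Lgr4, 0 and 0.438 CPM for Lgr5, and 0.814 and 1.75 CPM for Lgr6. These came from at most 11 UMIs of Lgr4, 1 of Lgr5 and 4 of Lgr6 per library.

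In basal cells the log2 ratio of KO over WT for Axin2 was -0.39, ranging from -0.62 to -0.15 over the alternatives. It was lower in the KO library in 3 of 3 sub-clusters, at 16.3 [13.5, 19.5] and 23.0 [20.3, 26.1] CPM with Slpi, 13.8 [10.8, 17.5] and 17.7 [14.4, 21.5] CPM with Il17b, and 10.5 [7.30, 14.7] and 11.2 [8.55, 14.4] CPM with Lbhd2. The intervals overlapped in the last 2 of these. No member reached 2-fold between the libraries in basal cells.

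Stromal Axin2 was uneven, with 1 fibroblast cluster standing above the others. In fibroblasts as a whole it was at 10.3 [9.34, 11.4] and 11 [10.0, 12.1] CPM. Cluster 6, with Stra6 and Mmp11, held 39.5 [34.1, 45.4] and 38.4 [33.1, 44.2] CPM, above basal cells in both libraries. Cluster 1 held 12.6 and 14.0 CPM, cluster 3 5.19 and 8.01 CPM, cluster 4 1.72 and 2.30 CPM, and cluster 5 0.783 and 1.5 CPM. Cluster 24, the other Rspo1-high cluster, held 2 UMIs in each library. Of the 2 clusters with the highest Rspo1, only cluster 6 was high for Axin2. In cluster 6, Axin2 was not higher in cells with an Rspo1 UMI. It was at 37.2 CPM in the 127 KO cells with Rspo1 and 40.4 CPM in the 386 without, and at 34.0 and 39.7 CPM in the 81 and 328 WT cells. A cell without an Rspo1 UMI may still express the gene, so this split cannot show whether single cells pair the 2 RNAs.

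In the wider cluster found without scaling, Axin2 was at 23.2 and 24.6 CPM, and at most 7.99 CPM in the other fibroblast clusters. WT cells of cluster 11, with Rspo3, held 318 Axin2 UMIs, 42.6 [38.0, 47.5] CPM.

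Wif1 (ENSMUSG00000020218, chr10:121033960-121100650, + strand) was the member most restricted to basal cells, with 86.2% of its KO UMIs and 74.0% of its WT UMIs. Its level there was 96.4 [91.7, 101] and 95.1 [91.1, 99.2] CPM. In the Slpi, Il17b and Lbhd2 sub-clusters it was at 70.0 and 76.0, 133 and 113, and 103 and 115 CPM, so it was lowest where Lgr5 was highest. Hormone-sensing luminal cells held 14 and 12 UMIs and luminal progenitors 1 and 13. A UMI was seen in 59.7% [56.5, 62.9] and 55.9% [53.2, 58.5] of basal cells and in 0% and 0.690% of T cells, or 16.7% and 14.5% against 0% and 0.348% after thinning. Fibroblasts held 24 and 69 UMIs, 0.616 [0.395, 0.917] and 1.64 [1.28, 2.08] CPM, of which 14 and 50 lay in cluster 6.

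**Figure D4:**
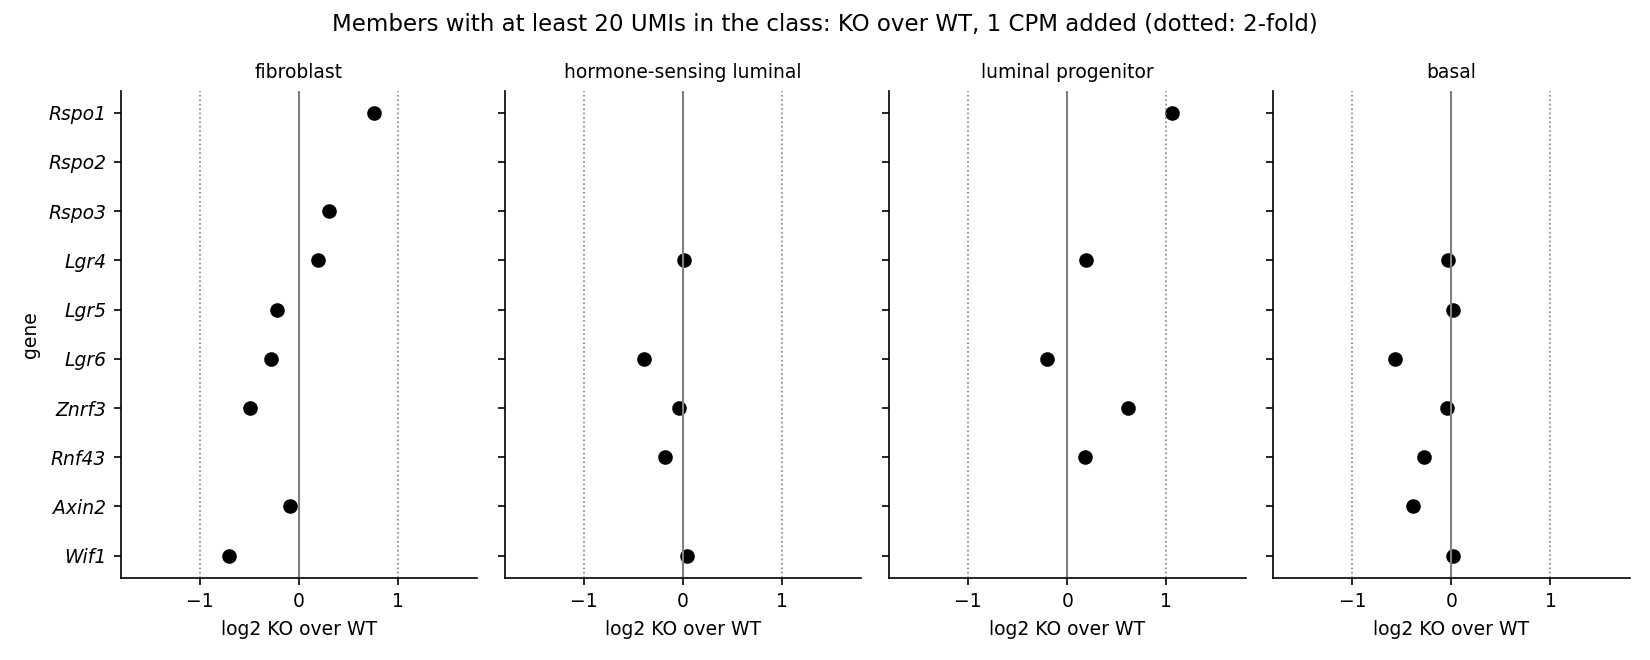
Each point is the log2 ratio of KO over WT levels (x axis, 1 CPM added) of a gene with at least 20 UMIs in the class, in 4 classes; with 1 library per genotype no error bar between animals can be drawn. Rspo1 in luminal progenitors, at 1.06, is the only point past the dotted 2-fold lines.

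Among the measured members in basal cells, intervals did not overlap between the libraries for Lgr6 and Axin2, both lower in the KO library. In fibroblasts they did not for Rspo1 (higher), Znrf3 and Wif1 (lower), where the log2 ratio of Wif1 was -0.71. The share of all genes with intervals apart was not computed, so whether the members stand out by this is not known. A 2-fold difference was reached by 0 of 7 measured members in basal cells, 0 of 8 in fibroblasts and 0 of 5 in hormone-sensing luminal cells. Few genes of any kind reached it there, 0.925%, 0.65% and 1.77%, so these counts say nothing particular of the members. The median log2 ratio of the measured members was -0.04 in basal cells, -0.15 in fibroblasts, -0.04 in hormone-sensing luminal cells and 0.19 in luminal progenitors. Over all genes measured it was -0.02, -0.06, -0.06 and -0.03. Over all 10 classes, 7 of 47 pairs of member and class reached 2-fold, beside 4.24% of the pairs of any gene and class, of which Rspo1 in luminal progenitors is given above.

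The other 6 lay in immune and endothelial cells and were lower in the KO library. In macrophages these were Lgr6, at 17 and 72 UMIs, 5.19 [3.03, 8.32] and 17.2 [13.4, 21.6] CPM, and Wif1, at 27 and 125 UMIs, 8.25 [5.44, 12.0] and 29.8 [24.8, 35.5] CPM. In B cells Wif1 held 3 and 18 UMIs and Lgr4 13 and 15. Wif1 in vascular endothelial cells held 10 and 30 UMIs, and Znrf3 in dendritic cells 9 and 20. Of all genes measured, 6.42% were 2-fold apart in either direction in macrophages, 9.49% in B cells, 5.32% in vascular endothelial cells and 5.78% in dendritic cells. In T cells (6.15% of genes) and smooth muscle cells (6.93%) no measured member was.

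Basal markers summed higher in the WT library in the classes of these 6 pairs. They also did in T cells, at 35.2 and 327 CPM, where no measured member was 2-fold apart. Wif1, at 0 and 10 UMIs, and Lgr4, at 3 and 11 UMIs, were lower in KO T cells too. Both had fewer than the 20 UMIs asked for and so were not counted as measured. Whether basal RNA had a part in these values was not tested. The 9 basal markers, all of them detected, summed to 1884 KO and 3719.5 WT CPM in macrophages, 939 and 2330.0 CPM in B cells, 647 and 1101 CPM in vascular endothelial cells and 362 and 547 CPM in dendritic cells. Barcodes that also held the genes of a second lineage made up 30.6% and 31.7% of macrophages, 5.87% and 17.4% of B cells, 6.67% and 18.9% of vascular endothelial cells and 6.19% and 16.6% of dendritic cells. Without these barcodes, 2 of 39 pairs reached 2-fold, beside 3.39% of the pairs of any gene and class. They were Rspo1 in luminal progenitors at a log2 ratio of 1.18 and Lgr6 in macrophages at -1.60, from 4 and 17 UMIs. Wif1 in macrophages was then at 5.83 and 7.95 CPM. The basal markers still summed to 553 and 797 CPM in the macrophages left, and their part in the Lgr6 value was not tested. When the variable genes were not scaled before clustering, 0 of 34 pairs reached 2-fold, beside 3.62% of the pairs of any gene and class.

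The members were set beside 71 other genes of Wnt signalling, listed by role. Of the ligand and export genes, 4 of the 14 measured were at least 2-fold higher in fibroblasts in both libraries, Wnt2, Wnt9a, Wnt10b and Wnt16, and 5 in epithelium, Wnt4, Wnt5b, Wnt6, Wnt7b and Wnt10a. Fibroblast Wnt2 was at 97.2 and 82.9 CPM, and hormone-sensing luminal Wnt4, a known relay of progesterone, at 215 and 171 CPM. Of the 15 receptor genes, Fzd1, Fzd2, Fzd4, Ror1 and Ror2 were higher in fibroblasts and Fzd6, Fzd7, Fzd10 and Lrp5 in epithelium. Fzd7 was at 95.7 and 115 CPM in basal cells, where Lgr4 was also highest. Of the 12 inhibitor genes measured, 7 were higher in fibroblasts, led by Sfrp2 at 539 and 553 CPM and Sfrp4 at 213 and 186 CPM, and 1 in epithelium, Sostdc1. The compartment of Wif1, in basal cells, was thus that of the smaller group of inhibitors.

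Among the 7 other target and feedback genes measured, Cd44, Myc, Nkd2 and Tnfrsf19 were higher in fibroblasts and Ccnd1 in epithelium. Inside the cell, 12 of 15 genes were 2-fold apart in neither direction, with Tcf7l1 higher in fibroblasts and Apc and Tcf7 in epithelium. Cluster 6, with the highest fibroblast Axin2, also held the highest fibroblast levels of the feedback genes Nkd1, at 53.8 and 56.7 CPM, and Nkd2, at 62.8 and 58.3 CPM. The receptor gene Fzd1 was at 217 and 259 CPM there, and Wnt5a and Wnt11 at 136 and 137 and at 112 and 136 CPM. Cluster 3, with the highest Rspo2, Rspo3 and Lgr4 of the fibroblast clusters, held the highest Wnt10b, at 53.1 and 74.7 CPM, and Wnt2, at 191 and 149 CPM. Between the libraries, 0 of 58 of these genes in basal cells and 0 of 64 in fibroblasts were 2-fold apart. In hormone-sensing luminal cells 2 of 47 were, Sfrp2 at 0.948 and 4.25 CPM and Sfrp4 at 0.700 and 3.58 CPM. The fibroblast markers summed to 83.4 and 342 CPM in these cells, and their part was not tested. In luminal progenitors 2 of 42 were, Wnt4 at 5.50 and 15.1 CPM and Wnt5a at 1.67 and 6.63 CPM. In these cells the basal markers summed to 198 and 471 CPM and the fibroblast markers to 273 and 514 CPM, and their part was not tested.

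Genes with the most similar pattern were sought over 21 clusters with at least 50 cells in each library, among 9785 genes, by the lower of the 2 libraries' Pearson r of log2 levels. For Lgr6 these were Plekhb1 (0.95), Tfap2c (0.94) and Sox10 (0.93), the last 2 being transcription factor genes. Wif1 was most like Lama1 (0.94), a laminin chain gene, the basal regulator Trp63 (0.93) and Reln (0.91), and Lgr4 most like Dag1 (0.88), Nfix (0.88) and Nedd4 (0.86). For Rnf43 they were Slc25a13 (0.88), Pkp3 (0.87) and Tmsb15b2 (0.86), and for Axin2 Tent4b (0.85), Maf (0.77) and Tmem64 (0.76). The likeness was lower for Rspo3 with Ackr2 (0.79), Pofut1 (0.69) and Clec14a (0.67), Znrf3 with Abl1 (0.78), Ddhd2 (0.73) and Ankrd54 (0.73), Lgr5 with Ccn2 (0.77), Ltbp2 (0.72) and Col12a1 (0.71), and Rspo1 with Dapk1 (0.72), H6pd (0.72) and Prrx2 (0.71). Rspo2 was too low for such a search. Clusters of 1 library share its depth and free RNA, so these values describe the libraries.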

How the data were processed

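The deposited matrices hold whole-number UMI counts of 32285 genes per barcode, per the file headers, with no barcode under 500 UMIs. The submitters' processing notes list the build mm10, with Seurat 3.2.0 and Cell Ranger 5.0.1 as tools, and cell types were rebuilt here. Barcodes with at least 500 genes, 1000 UMIs and at most 10% mitochondrial UMIs were kept, and 435 KO (3.99%) and 461 WT (4.20%) doublets called by Scrublet in scanpy 1.11.5 were removed. On 2000 scaled variable genes, 30 components and 20 neighbours, both libraries were clustered together by leidenalg 0.10.2 at resolution 1, with no correction between libraries, and clusters were named from markers of 25 types.

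UMIs were summed per class and library. Levels of KO and WT were compared in classes of at least 100 cells per library for genes with at least 20 UMIs over both, as log2 ratios with 1 CPM added, without a test. Shares of cells were also taken after thinning to 2000 UMIs. For the share of epithelial cells with Rspo2, a count of 0 is limited by 3 counts. Upper limits in CPM for a count of 0 are the upper ends of the exact 95% intervals. Likeness was searched among genes with at least 20 CPM, 3 genes being named per member. Gene positions are from GENCODE M21 on GRCm38. The step that calls a 2-fold difference between KO and WT was not tested at the low UMI counts of the pairs it called.

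The members, markers and lists were chosen with earlier results of these data known. Chosen after clusters and member levels were seen were scaling before clustering (both ways were run, and scaling set the Stra6 and Mmp11 fibroblasts apart), leaving clusters with markers of 2 types unnamed, the basal sub-clusters at resolution 2, and the second-lineage limit of 20% of a lineage's median share. The alternatives were all barcodes, a 5% mitochondrial limit, doublets kept, resolutions 0.5 and 2, each library alone, Wnt genes left out of clustering, cells classed one by one, TMM factors (edgeR 4.0.16 in R 4.3.3), 0.1 or 5 CPM added, thinning, means per cell, the 5 highest cells left out, and 4 added after seeing the data.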

Additional observations from a re-analysis of the deposited data

How the results depend on the processing

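No paired analysis was possible because each genotype has 1 library. Over 34 single results and 18 alternatives (14 planned and 4 added), 560 of 612 values stayed within their counting interval and 52 moved further. Of the ratios among them past 2-fold in the main setting, 0 changed sign. These results are ratios of fibroblasts over epithelium, and of KO over WT in fibroblasts and the epithelial classes. Of the KO over WT pairs past 2-fold, only Rspo1 in luminal progenitors is among them. The pairs in immune and endothelial cells were not scored this way. The fibroblast ratio of Rspo3 between KO and WT, under 2-fold at 0.30, passed 2-fold with the opposite sign with cells classed one by one (-1.22) and with cluster 11 as fibroblasts (-2.66). The sign of fibroblasts over epithelium was kept in 158 of 162 values, the exceptions being Znrf3. TMM factors raised that ratio by 0.20 on the log2 scale in both libraries. The count of 2 members higher in fibroblasts was 1 with all barcodes, with doublets kept, with cells thinned, with means per cell, with the 5 highest cells left out and with cluster 7 as luminal progenitors, Rspo1 being kept each time, and 0 with 5 CPM added. The count of 5 members higher in epithelium was 4 with all barcodes, with the 5% mitochondrial limit, with doublets kept and at resolution 0.5, and 3 at resolution 2, with cells classed one by one, with TMM factors, with 5 CPM added and with cluster 7 as luminal progenitors. Lgr6, Rnf43 and Wif1 were kept in all 18. The 7 pairs of member and class 2-fold apart between KO and WT became 12 with cells classed one by one, 4 at resolution 0.5, 3 with the 5% mitochondrial limit, with 5 CPM added and without the 5 highest cells, 2 at resolution 2 and without second-lineage barcodes, and 0 with thinned cells and without scaling. Of 27 genes named for likeness, 10 were kept with Spearman's rho in place of Pearson's r. The cause of these changes was not tested. At this depth Rspo2 had 4 and 18 UMIs, too few for a fold.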
